A study of Mus musculus with 34 samples.

Results

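The 10 genes described here were Fos, Fosb, Jun, Junb, Egr1, Atf3, Npas4 and Ier3, which are immediate early genes, and Hspa1a and Hspa1b, which are heat shock genes. They were chosen by name as genes that respond to stress, including the stress of tissue digestion, and they are 10 of the 32098 genes listed. All 10 were listed in both deposited tables and passed the filter on low values in both. Their mRNA was measured by RNA-seq in visceral white fat, in its stromal vascular fraction (SVF), which is the pellet of immune, vascular, mesothelial and progenitor cells that is left after digestion once the floating adipocytes are removed. Male C57BL/6J mice, for which no transgene or other treatment is named, were put on a high fat diet (HFD, 60% of kcal from fat) or a control diet (CHOW) at 6 weeks of age and fasted for 6 h before collection. The groups were CHOW for 8 weeks (4 libraries), HFD for 8 weeks (6), CHOW for 20 weeks (5), HFD for 20 weeks (6), CHOW for 34 weeks (7) and HFD for 34 weeks (6), so that the mice were 14, 26 or 40 weeks old. Every library came from tissue kept at 37 °C with collagenase for about 40 min and then put through erythrocyte lysis, so no undigested sample was compared and a level set in the mouse and one set during digestion cannot be told apart. The labels do not say which animals each library held, so the p-values measure only the spread between these libraries.

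Immediate early genes are switched on within minutes of a stimulus from transcription factors that the cell already holds, without new protein synthesis, and their mRNAs are short lived. Fos and Fosb proteins pair with Jun or Junb to form AP-1, which drives a later wave of target genes. Hspa1a and Hspa1b encode the inducible heat shock protein Hsp70, a chaperone that refolds damaged proteins, and the pair is transcribed by heat shock factor 1 when proteins unfold. Cells freed from solid tissue with warm enzyme are well known to carry both kinds of mRNA.

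The 2 heat shock genes are copies of each other on chromosome 17, 9951 bases apart and on the same strand. Their upstream sequences are shown because they mark how alike the 2 genes are, with GAANNTTC (2 facing units of a heat shock element) and CCAAT in capitals on either strand. They were taken from RefSeq (GRCm38.p6) at chr17:34972157-34972406 for Hspa1a and chr17:34959239-34959488 for Hspa1b, both on the minus strand, and they end at the base before the transcript start.

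Hspa1a: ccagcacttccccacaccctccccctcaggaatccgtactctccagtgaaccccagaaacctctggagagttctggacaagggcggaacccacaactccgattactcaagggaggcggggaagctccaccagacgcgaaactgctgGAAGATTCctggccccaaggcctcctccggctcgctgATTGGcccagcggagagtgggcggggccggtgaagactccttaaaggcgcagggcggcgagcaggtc
Hspa1b: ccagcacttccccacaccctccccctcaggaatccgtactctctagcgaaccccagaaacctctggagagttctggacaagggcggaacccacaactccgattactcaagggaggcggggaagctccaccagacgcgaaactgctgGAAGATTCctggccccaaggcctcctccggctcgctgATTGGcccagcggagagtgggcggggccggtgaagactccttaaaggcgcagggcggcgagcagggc

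The 2 windows differed at 3 of 250 bases. Of the 31-base words in the Hspa1a transcript, 63.8% also occurred in Hspa1b, and 67.5% of those in Hspa1b occurred in Hspa1a, so how the reads were divided between the pair is uncertain. The sum of both genes is therefore given beside each. Among 32851 RefSeq windows of 250 upstream bases, 6.69% held GAANNTTC and 33.8% held CCAAT.

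Fos and Npas4 are shown because both hold TGACGT, the core of the site that CREB binds in genes that respond to calcium and cAMP. Capitals mark TGACGT on either strand. The Fos window is chr12:85473640-85473889 on the plus strand and ends at the base before the start. For Npas4, 30 bases around its matches are given, at chr19:4990129-4990158 on the minus strand. GENCODE starts Npas4 further upstream than RefSeq does, at base 4990316. By that annotation these bases lie inside the gene and not upstream of it.

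Fos: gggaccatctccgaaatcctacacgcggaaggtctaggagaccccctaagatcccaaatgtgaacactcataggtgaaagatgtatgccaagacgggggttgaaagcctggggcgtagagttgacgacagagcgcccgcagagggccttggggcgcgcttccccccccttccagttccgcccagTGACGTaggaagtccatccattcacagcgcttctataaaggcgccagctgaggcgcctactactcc
Npas4: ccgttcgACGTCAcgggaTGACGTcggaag

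Npas4 held 2 matches in its 250 bases and Fos held 1. Of the 9 members whose windows were matched in the RefSeq table, 3 (Fos, Npas4 and Atf3) held TGACGT, against 6.47% of all windows. GAANNTTC was found in 3 of the 9, which were Hspa1a, Hspa1b and Jun.

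The levels are in TPM (transcript abundance scaled to the same total in each library), a share of each library that is corrected for transcript length. The members other than Npas4 were abundant in every library, and together the 10 made up 0.424% to 1.28% of all TPM in a library. By mean level in the 8- and 20-week libraries Junb stood 68th of the listed genes, Fosb 95th, Egr1 150th and Fos 191st. Npas4 was the exception, with a mean of 1.66 TPM and place 14257.

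**Figure D1:**
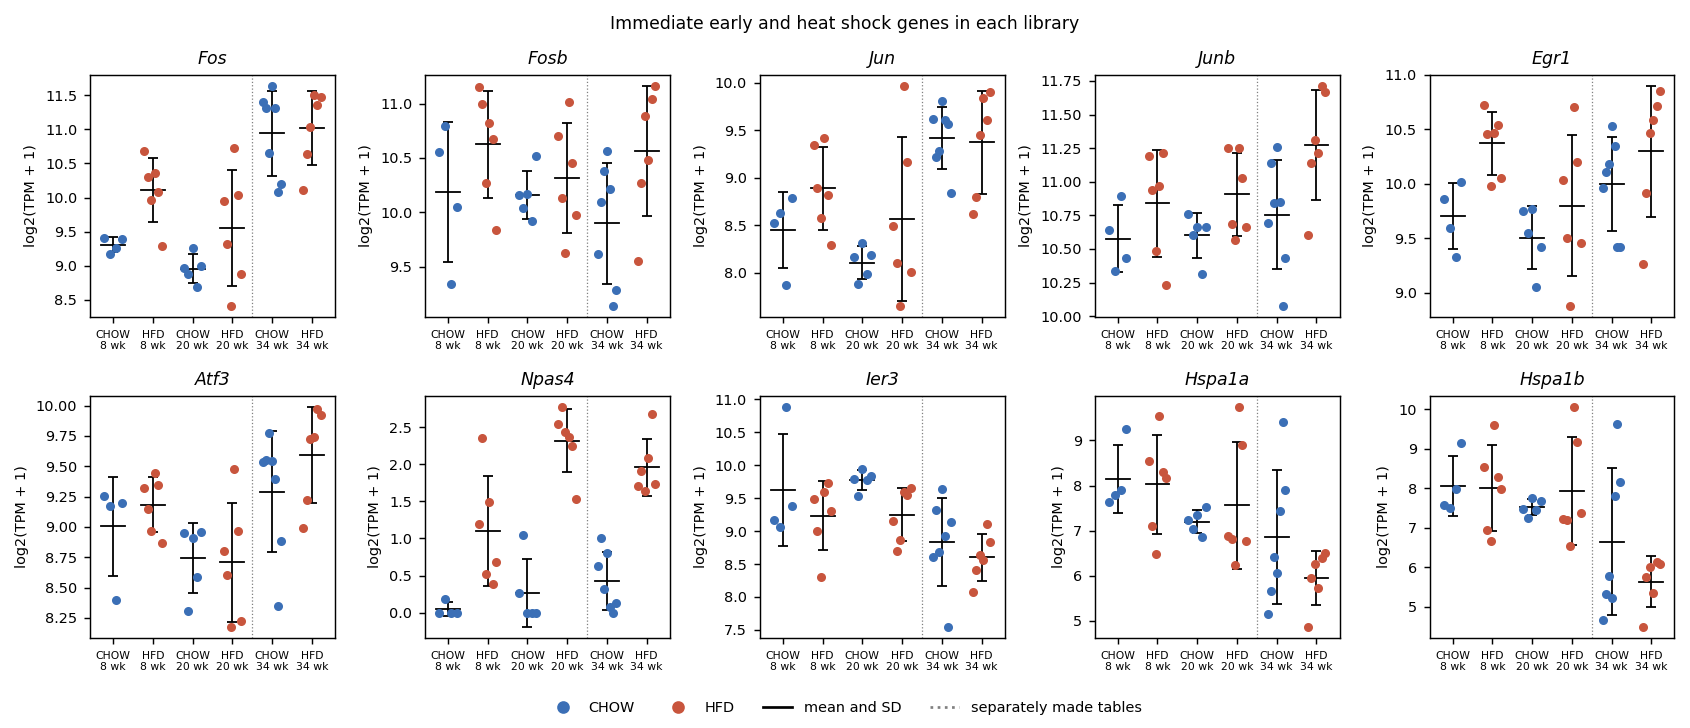
Level of each of the 10 genes, as log2(TPM + 1), in every library of the 6 groups. Points are libraries, black lines are the group mean and its SD, and the dotted line separates the 8- and 20-week libraries from the 34-week libraries, whose table was made apart. The Npas4 panel is the 1 in which the HFD and CHOW points do not overlap at any of the 3 times.

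Some libraries held much RNA of cells that the SVF should not contain. One HFD 8 week library (replicate 3) had 117775 TPM of seminal vesicle markers, against at most 15.6 TPM in any other library. HFD 8 week replicate 6 had the most erythroid RNA, 267887 TPM of its markers. Erythroid markers were not confined to it, with a median of 85456 TPM in the CHOW 8 week group and the lowest library of all at 7100 TPM. Germ cell markers summed to 11994 TPM in HFD 20 week replicate 5, and also passed 2000 TPM in HFD 20 week replicates 3 and 4 and HFD 34 week replicates 1 and 2. Adipocyte markers summed to 6243 to 18399 TPM in CHOW 34 week replicates 5, 6 and 7, against at most 2355 TPM elsewhere. Macrophage, fibroblast and progenitor, and endothelial markers, which define the SVF, were above 0 in every library. In such mixtures, fewer cells of a type and less RNA per cell cannot be told apart.

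Across the members, Npas4 was the 1 gene called between the diets. Npas4, a transcription factor known in neurons for its induction by calcium entry, was higher on HFD at 20 and 34 weeks, and the other 9 members did not pass the test at any time. At 8 weeks 0 of 10 members were called at an adjusted p under 0.05, where 0.0238% of all tested genes were called. At 20 weeks 1 of 10 was called, where 14.3% of all genes were. At 34 weeks 1 of 10 was called, where 0.243% were. At an unadjusted p under 0.05 the members numbered 3, 1 and 3 of 10 at 8, 20 and 34 weeks, beside 9.7%, 30.5% and 13.2% of all genes. The libraries of both diets did not overlap for 1 of 10 members (Npas4) at each time, beside 2.11%, 9.19% and 0.937% of all genes. The median log2 fold change of the members was 0.35, 0.33 and 0.19 at the 3 times, and that of all tested genes was −0.08, 0.08 and 0.10. The 95% intervals of the 9 members other than Npas4 reached between 0.38 and 1.52 to either side of the estimate, so that a change of that size could not be told from none.

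**Figure D2:**
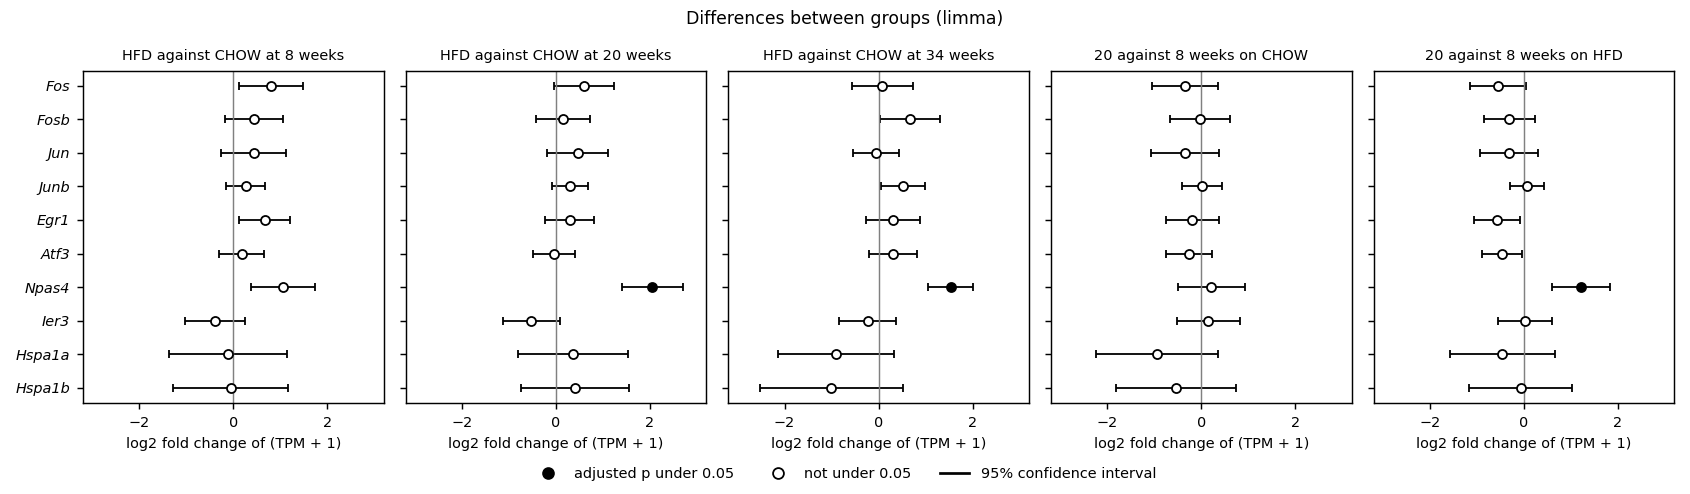
Log2 fold change of (TPM + 1) with its 95% confidence interval for each gene in 5 comparisons, from limma. Filled points have an adjusted p under 0.05, and they are Npas4 for HFD against CHOW at 20 and 34 weeks and for 20 against 8 weeks on HFD.

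Npas4 was listed at 0 in 3 of the 4 CHOW 8 week libraries and at 0.141 TPM in the other. On HFD for 8 weeks it ranged from 0.304 to 4.09 TPM, with a median of 0.944. All 6 HFD libraries were thus above all 4 CHOW libraries, although HFD replicates 3, 5 and 6 stayed under 1 TPM. With a log2 fold change of 1.05 (SE 0.33), the difference missed the threshold (limma, Benjamini-Hochberg adjusted p = 0.273). With sample quality weights, which give noisy libraries less say, it was 1.20 and passed (limma adjusted p = 0.0470). That fit called 209 of all genes, in place of 4.

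At 20 weeks Npas4 was at 0.200, 1.08, 0, 0 and 0 TPM in the CHOW libraries and between 1.90 and 5.84 TPM in the HFD libraries, with a median of 4.28. The lowest HFD library was above the highest CHOW library. Npas4 rose by 2.05 on the log2 scale (SE 0.31, 95% interval 1.41 to 2.69, limma adjusted p = 0.000241), in 6 of 6 HFD libraries. The call was kept with every library left out in turn (log2 fold change 1.96 to 2.25) and with the libraries over 2000 TPM of germ cell markers left out (2.02, limma adjusted p = 0.00487).

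At 34 weeks the CHOW libraries ran from 0 to 1.01 TPM with a median of 0.254, and the HFD libraries from 2.12 to 5.37 TPM with a median of 2.53. Again no HFD library reached down to the CHOW range. Npas4 rose by 1.53 on the log2 scale (SE 0.22, limma adjusted p = 0.0210). This call was lost without CHOW 34 week replicate 5 (limma adjusted p = 0.0679) or 7 (0.0615). It was also lost without HFD 34 week replicate 2 (0.0748), 3 (0.0535) or 4 (0.0633). In that order these fits called 4, 0, 0, 1 and 0 of all genes tested, in place of 34. The log2 fold change itself stayed between 1.39 and 1.63 with any 1 library left out. With CHOW 34 week replicates 5, 6 and 7 left out together it was 1.27 (limma adjusted p = 0.122), and a pseudocount of 0.1 TPM also ended the call. Each of these fits called 0 of all genes tested.

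Npas4 passed the filter on low values through the HFD libraries. It reached 1 TPM in 6 of 6 HFD libraries at 20 weeks and 6 of 6 at 34 weeks, in 3 of 6 HFD libraries at 8 weeks, and in 0 of 4, 1 of 5 and 1 of 7 CHOW libraries at 8, 20 and 34 weeks. With no filter, over all listed genes, it was called at 20 weeks (limma adjusted p = 0.000551) and at 34 weeks (0.0445) and not at 8 weeks (0.374). A stricter filter of 5 TPM removed the gene. Read depth is unknown for these values, so how many reads stand behind a level of 1 to 6 TPM cannot be given.

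Between 8 and 20 weeks on HFD, Npas4 rose by 1.21 on the log2 scale (SE 0.29, limma adjusted p = 0.0130), with the ranges of the 2 groups overlapping through HFD 8 week replicate 2. This call was lost with a pseudocount of 0.1 TPM in place of 1, where the log2 fold change was 1.89 (limma adjusted p = 0.0639), and without the libraries over 2000 TPM of germ cell markers, where it was 1.18 (0.0941). With the adipocyte markers as a covariate the log2 fold change of Npas4 was 0.35 (limma adjusted p = 0.750). That covariate took the calls over all genes in this comparison from 1475 to 126. Over the same time on CHOW the log2 fold change was 0.22 (SE 0.34, limma adjusted p = 0.873). The difference between the diet effects at 20 and at 8 weeks, a change of 1.00 (SE 0.45), did not pass the test (limma adjusted p = 0.347). Thus a larger effect of diet on Npas4 at 20 than at 8 weeks was not shown.

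**Figure D3:**
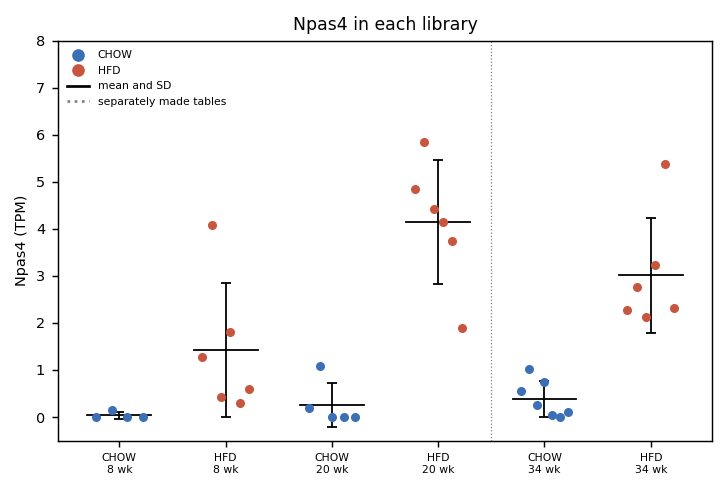
Npas4 in TPM in every library, with the group mean and SD in black. HFD points lie at 0.304 to 4.09 TPM at 8 weeks, 1.90 to 5.84 at 20 weeks and 2.12 to 5.37 at 34 weeks, and CHOW points at or under 1.08 TPM.

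The cell make-up moved with diet in the same libraries. The 5 adipocyte markers summed to 494 to 1024 TPM in the CHOW 20 week libraries and to 175 to 336 TPM in the HFD 20 week libraries, which did not overlap. With the mean of these markers as a covariate the Npas4 log2 fold change at 20 weeks was 1.17 and was no longer called (limma adjusted p = 0.229). At 34 weeks it was 1.16 (0.162). The covariate took the calls over all genes from 2405 to 44 at 20 weeks and from 34 to 0 at 34 weeks. The covariate moved with diet. From 8 to 20 weeks the median marker sum also went from 2003 to 909 TPM on CHOW and 612 to 245 TPM on HFD. So here and below a call lost with the covariate cannot be assigned to adipocyte RNA or to the diet or time compared. The 5 mast cell markers summed to 355 to 512 TPM on CHOW and 458 to 2064 TPM on HFD at 20 weeks, and to 71.9 to 792 and 579 to 2048 TPM at 34 weeks. The 6 macrophage markers summed to 3172 to 8175 TPM on CHOW and 5717 to 11184 TPM on HFD at 20 weeks, and none of the markers of these 3 cell types was at 0 in any library. The part of mast cells and macrophages in the Npas4 difference was not tested. Erythroid markers summed to 27334 to 130027 TPM on CHOW and 12622 to 30448 TPM on HFD at 20 weeks, and their part was not tested either. The highest Npas4 value of the 20-week libraries was in HFD replicate 2, where the germ cell markers summed to 228 TPM, and HFD replicate 5, with the most germ cell RNA, had 3.74 TPM.

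Fos, the founding AP-1 gene, was at 676, 577, 610.1 and 670 TPM in the 4 CHOW 8 week libraries. On HFD for 8 weeks it ranged from 625 to 1642 TPM with a median of 1169. HFD replicate 6, the library richest in erythroid RNA, was the 1 that fell inside the CHOW range. HFD and CHOW differed by a log2 fold change of 0.81 (SE 0.32), with an unadjusted p under 0.05 but a limma adjusted p of 0.418.

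At 20 weeks Fos was at 499, 469, 613, 411 and 510.4 TPM on CHOW. The HFD libraries spread from 339.6 TPM in replicate 3 to 1699 TPM in replicate 4, and so lay on both sides of the CHOW libraries. The log2 fold change was 0.60 (SE 0.30, limma adjusted p = 0.191). At 34 weeks Fos ranged from 1077 to 3189 TPM on CHOW (median 2528) and from 1107 to 2898 TPM on HFD (median 2352), and the groups covered the same range. There the log2 fold change was 0.08 (95% interval −0.57 to 0.73), and its sign depended on the libraries used.

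Ordered by mean, Fos in the 8- and 20-week libraries went from CHOW 20 weeks (501 TPM ± 73.8, SD, n = 5) through CHOW 8 weeks (633 TPM ± 47.97, n = 4) and HFD 20 weeks (864 TPM ± 496, n = 6) to HFD 8 weeks (1152 TPM ± 341, n = 6). The first pair and the last pair of neighbours did not pass the test, and the HFD 20 week range took in all 4 CHOW 8 week libraries. The 34-week means, 2114 TPM ± 819.6 (SD, n = 7) on CHOW and 2189 TPM ± 724 (n = 6) on HFD, were higher than any of these on both diets. They come from a table made apart, so no test was run, and age and batch cannot be told apart.

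Fosb, another partner of Jun in AP-1, ranged from 562 TPM to 2288 TPM over all 34 libraries. At 34 weeks it was 562 to 1510.4 TPM on CHOW and 748 to 2288 TPM on HFD, with a log2 fold change of 0.66 (SE 0.29) and a limma adjusted p of 0.353. CHOW replicates 6 and 7, which hold much adipocyte RNA, were the lowest CHOW libraries for Fosb, while replicate 5, which holds as much as replicate 7, was among the higher ones at 1187 TPM. The alternative fits of this difference include the adipocyte covariate and the fit without CHOW replicates 5, 6 and 7. Over all of them the Fosb log2 fold change ran from 0.39 to 0.99 and was called in 0. The part of adipocyte RNA was not tested beyond these fits.

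Jun, the AP-1 gene with the lowest level of the 4, lay between 199.7 and 1002 TPM at 8 and 20 weeks and between 393 and 959.6 TPM at 34 weeks. The top value was HFD 20 week replicate 4, where the other 5 libraries of the group were at 199.7 to 573 TPM. Junb, the most abundant member at 8 and 20 weeks, was at 1078 to 2449 TPM on CHOW and 1553 to 3362 TPM on HFD at 34 weeks. Its log2 fold change there was 0.52 (SE 0.22, limma adjusted p = 0.334).

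Egr1, a zinc finger factor that growth signals induce through MAP kinases, was at 927, 775, 643 and 1037 TPM on CHOW and 1012 to 1694 TPM on HFD at 8 weeks (median 1409). The groups overlapped only through CHOW replicate 4 and HFD replicate 3, the library with seminal vesicle RNA. The log2 fold change was 0.67 (SE 0.26), again with a limma adjusted p over the threshold, at 0.398. At 20 weeks the HFD range had widened to 470.2 to 1671 TPM, around CHOW values of 532 to 869.6 TPM.

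From 8 to 20 weeks on HFD, Egr1 had a log2 fold change of −0.57 (SE 0.23, limma adjusted p = 0.119). Atf3, a stress-induced repressor of the ATF family, had −0.48 (SE 0.20, 0.135). Whether these 2 genes were called turned on the scaling and on 1 library. Without HFD 20 week replicate 4 Egr1 fell by 0.76 (limma adjusted p = 0.0356) and Atf3 fell by 0.63 (0.0450). With quantile normalization they fell by 0.84 (0.0182) and by 0.80 (0.0124). These fits called 1195 and 2755 of all genes, in place of 1475. In this comparison 1 of 10 members (Npas4) was called beside 8.78% of all genes, and 3 of 10 (Npas4, Egr1, Atf3) had an unadjusted p under 0.05 beside 27.2%. The 2 groups overlapped for every member, where 4.17% of all genes did not overlap (0 of 10 members).

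Atf3 ranged from 288 to 711 TPM at 8 and 20 weeks and from 326 to 1003 TPM at 34 weeks, and its largest diet difference was 0.30 (SE 0.24, limma adjusted p = 0.579), at 34 weeks. Ier3, which restrains cell death downstream of NF-kB, was at 739 to 979.7 TPM in the CHOW 20 week libraries and 413 to 799.7 TPM in the HFD 20 week libraries. The log2 fold change was −0.52 (SE 0.29, limma adjusted p = 0.230), and with sample quality weights Ier3 fell by 0.65 (limma adjusted p = 0.0233). With those weights 5092 of all genes were called, in place of 2405. CHOW 8 week replicate 3 stood apart, with 1891 TPM of Ier3 against 532 to 664 TPM in the other 3 libraries and with the lowest Fosb (647 TPM) and Atf3 (336 TPM) of its group. In that library the neutrophil markers summed to 1946 TPM and the endothelial markers to 149 TPM, against 83.3 to 1131 and 561 to 754 TPM in the other 3, and the part of either was not tested.

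From 8 to 20 weeks on CHOW, 0 of 10 members were called by limma, beside 0.613% of all genes, and 0 of 10 had an unadjusted p under 0.05, beside 12.5%. For 1 of 10 (Hspa1a) the groups did not overlap, beside 6.28% of all genes. The test of the diet by time interaction called 0 of 10 members beside 0.297% of all genes, and 1 of 10 (Npas4) had an unadjusted p under 0.05 beside 13.8%. The members' median log2 fold change was −0.23 on CHOW and −0.32 on HFD, where that of all genes was −0.09 and 0.09.

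Neither heat shock gene was called in any comparison. Summed Hspa1a and Hspa1b were at 388, 399.7, 486 and 1178 TPM in the CHOW 8 week libraries and at 327, 281, 378, 288 and 387 TPM in the CHOW 20 week libraries. All CHOW 20 week libraries were below all CHOW 8 week libraries, but the highest of the former (387 TPM) nearly met the lowest of the latter (388 TPM). The difference of means was −0.73 on the log2 scale, with p = 0.0159 in a two-sided exact permutation test, which is the smallest p that 5 against 4 libraries allow, and 0.0794 after adjustment over the 5 comparisons. Without CHOW 8 week replicate 4 the difference was −0.36.

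In HFD mice the sum ran from 188 to 1524 TPM at 8 weeks and from 167 to 1929 TPM at 20 weeks. At 20 weeks replicates 4 and 5 reached 1929 and 1048 TPM and the other 4 HFD libraries stayed between 167 and 274 TPM. Replicates 4 and 5 also had the most germ cell RNA of the group, 2768 and 11994 TPM, and replicate 3, with 2306 TPM, had the lowest sum. Leaving out replicates 3, 4 and 5, the libraries over 2000 TPM of germ cell markers, turned the signs for diet at 20 weeks. The log2 fold change of Hspa1a went from 0.36 to −0.37 and that of Hspa1b from 0.41 to −0.26, neither called. That fit drops the highest sums and the lowest, so the part of germ cell RNA itself was not tested. The sum differed between HFD and CHOW by −0.08 at 8 weeks (exact permutation p = 0.886) and by 0.39 at 20 weeks (exact permutation p = 0.584). Without HFD 20 week replicate 4 the latter was −0.047.

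At 34 weeks the sum was 49.5 to 158 TPM on HFD. On CHOW it was 58.7, 88.5, 138 and 102 TPM in replicates 1 to 4 and 395, 1466 and 522 TPM in replicates 5, 6 and 7. The 3 high libraries were the 3 with adipocyte marker sums of 6434, 18399 and 6243 TPM, where replicates 1 to 4 had 182 to 1431 TPM. They also had the most mitochondrially encoded RNA of the 34-week libraries, 92035 to 108677 TPM against 50299 to 86995 TPM. The part of adipocyte RNA in the sum was not tested beyond leaving out replicates 5, 6 and 7, and none of the 5 adipocyte markers was at 0 in any library.

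The log2 fold change of Hspa1a at 34 weeks was −0.91 (SE 0.58, limma adjusted p = 0.498) and that of Hspa1b was −1.01 (SE 0.71, 0.539). Without those 3 libraries the signs turned, to 0.13 and 0.40. The difference of the sum was −0.98 with all libraries (exact permutation p = 0.212) and 0.24 without them (exact permutation p = 0.524). Hspa1a made up 39.8% to 64.7% of the sum in single libraries, and how far the division of shared reads sets this share was not tested.

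**Figure D4:**
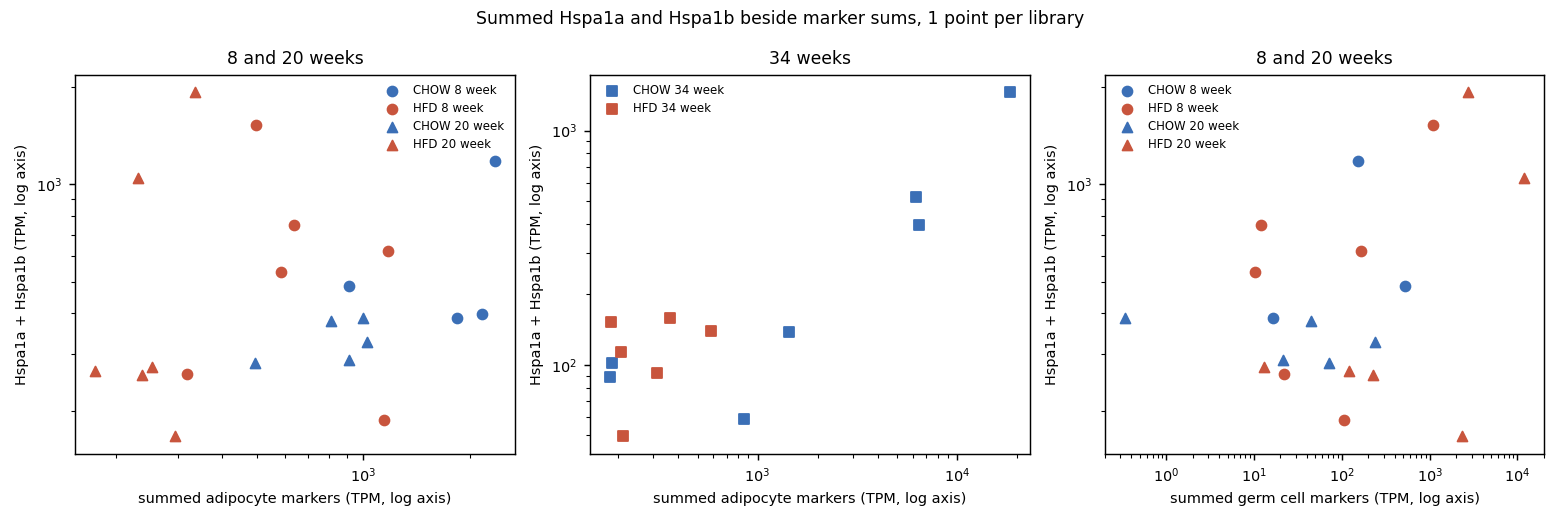
Summed Hspa1a and Hspa1b against the summed adipocyte markers (left and middle) and germ cell markers (right), all in TPM on log axes, with 1 point per library. In the middle panel the 3 CHOW 34 week libraries at 395 to 1466 TPM of the pair are the 3 at 6243 TPM or more of adipocyte markers.

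Members of the AP-1 group varied together from library to library. With the group means removed, Pearson's r for the 15 pairs among Fos, Fosb, Jun, Junb, Egr1 and Atf3 ran from 0.484 to 0.901 in the 21 libraries of 8 and 20 weeks (median 0.778) and from 0.531 to 0.946 in the 13 libraries of 34 weeks (median 0.854). These are descriptions, since the points share each library's scaling and cell make-up. Of all genes compared, 10.7% had r over 0.5 with Fos at 8 and 20 weeks and 30.4% at 34 weeks. Hspa1a and Hspa1b, which share reads, had r = 0.990 and 0.983. The 12 pairs of a heat shock gene with 1 of the 6 had a median r of 0.650 at 8 and 20 weeks and −0.272 at 34 weeks.

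For Fos and the heat shock sum, Pearson's r of within-group deviations was 0.645 and Spearman's rho 0.5675 over the 21 libraries of 8 and 20 weeks (permutation p = 0.0229 and 0.0353, the first 0.0457 after adjustment over 2 relations). Leaving out HFD 20 week replicates 4 and 3, the farthest from the median of Fos, brought r down to 0.382, so the relation rests largely on those libraries. Over the 13 libraries of 34 weeks r was −0.427 and rho −0.368 (permutation p = 0.189 and 0.242), and r was −0.510 without HFD replicate 1 and CHOW replicate 6. With CHOW replicates 5, 6 and 7 left out r was 0.381 (permutation p = 0.326), so the sign at 34 weeks turned without the 3 libraries rich in adipocyte RNA.

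**Figure D5:**
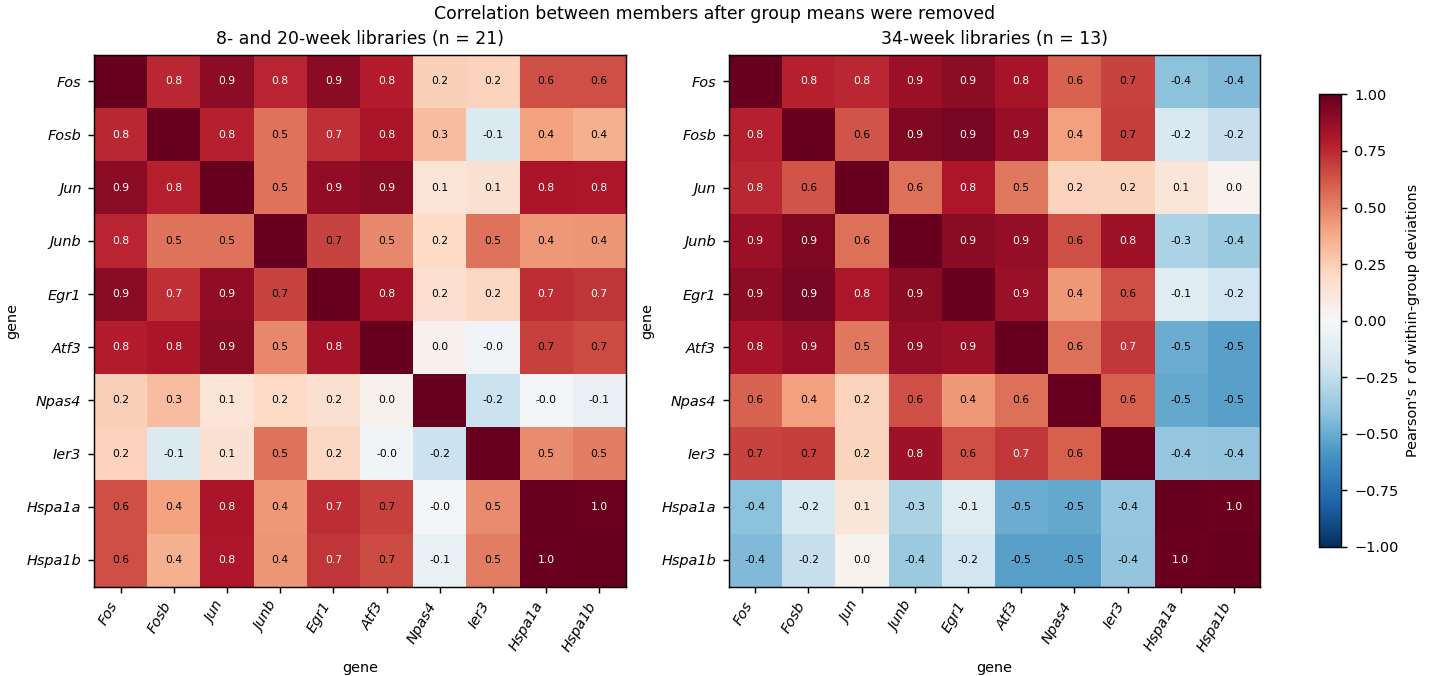
Pearson's r between each pair of members, on log2(TPM + 1) after the group mean was removed, for the 21 libraries of 8 and 20 weeks (left) and the 13 libraries of 34 weeks (right). Fos, Fosb, Jun, Junb, Egr1 and Atf3 form a block with r of 0.484 or more in both, and the heat shock rows change from a median of 0.650 with that block to −0.272.

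The genes whose within-group pattern was most like that of Fos at 8 and 20 weeks, out of 10640 compared over 21 libraries, were Ier2 (r = 0.932), Btg2 (0.893), Id3 (0.892), Per1 (0.886) and Klf4 (0.876). At 34 weeks, out of 10294 over 13 libraries, they were Slc6a4 (0.975), C1ra (0.957), C1s1 (0.954), Ier2 (0.954) and Prickle1 (0.950). Ier2, itself an immediate early gene, was in both lists.

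For the heat shock sum the nearest genes at 8 and 20 weeks were Hsp90aa1 (r = 0.918), Hsph1 (0.907), Sox4 (0.905), Amotl2 (0.863) and Hspb1 (0.854). Hsp90aa1, Hsph1 and Hspb1 encode stress-inducible chaperones. At 34 weeks they were Slc2a4 (0.966), Lag3 (0.964), Chst1 (0.963), Lrg1 (0.961) and Mcam (0.961). Slc2a4 encodes GLUT4, the insulin-regulated glucose transporter of adipocytes and muscle. Of 21 other heat shock genes, 13 had r over 0.5 with the sum at 8 and 20 weeks, against 11.7% of all genes compared, and 3 had it at 34 weeks, against 13.4%. The likeness was not particular to heat shock genes. Of 35 other immediate early genes, 17 had r over 0.5 with the sum at 8 and 20 weeks and 0 at 34 weeks.

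Other genes of these programmes were counted from lists. The 9 upstream regulators, such as Srf, Creb1 and Hsf1, had 0 called by limma in any of the 6 comparisons, beside 0.0238% to 14.3% of all genes. At most 2 had an unadjusted p under 0.05 (at 20 weeks, beside 30.5% of all genes). Of 7 other AP-1 family genes, 1 was called, lower on HFD at 20 weeks, where 4.99% of all genes fell, and 0 were called elsewhere. It was Batf, a partner of Jun in lymphocytes, at 55.3 TPM ± 7.65 (SD, n = 5) on CHOW and 28.7 TPM ± 1.78 (n = 6) on HFD, with a log2 fold change of −0.91 (SE 0.21, limma adjusted p = 0.00689). With the adipocyte covariate the log2 fold change of Batf was −1.05 and was not called (limma adjusted p = 0.182).

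Of 35 other immediate early genes tested, 6 were called at 20 weeks, a share close to the 14.3% of all genes. They were 5 higher and 1 lower on HFD, beside 9.32% and 4.99% of all genes. Egr2, the zinc finger relative of Egr1, was at 60.7 TPM ± 30.9 (SD, n = 5) on CHOW and 114 TPM ± 28.7 (n = 6) on HFD, with a log2 fold change of 0.99 (SE 0.29, limma adjusted p = 0.0280). Dusp4, a phosphatase that shuts off MAP kinases, rose by 0.92 (SE 0.25, 0.0178), and Arc, another gene known from active neurons, rose by 0.92 (SE 0.26, 0.0227). Egr2 and Arc lost the call in 6 and 3 of the 11 fits that left out 1 library each. Without the libraries over 2000 TPM of germ cell markers, a fit with fewer HFD libraries, none of the 3 was called, at 0.80 for Egr2 (limma adjusted p = 0.231), 1.06 for Dusp4 (0.0547) and 0.73 for Arc (0.164). The same held with the adipocyte covariate, at 0.67 for Egr2 (0.491), 0.45 for Dusp4 (0.576) and 0.75 for Arc (0.411). Of these 35 genes 0 were called at 8 or 34 weeks, beside 0.0238% and 0.243% of all genes. At those times 6 and 7 had an unadjusted p under 0.05, beside 9.7% and 13.2% of all genes.

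From 8 to 20 weeks 4 of the same 35 genes were called on CHOW, all higher, beside 0.458% of all genes. On HFD 11 were called higher and 3 lower, beside 6.12% and 2.65%. Tnfaip3, which curbs NF-kB signalling, rose from 250.4 TPM ± 92.5 (SD, n = 6) to 808 TPM ± 97.4 (n = 6) on HFD, a log2 fold change of 1.78 (SE 0.26, limma adjusted p = 0.000163). Nfkbia, the NF-kB inhibitor, rose by 1.47 (SE 0.22, 0.000208) and Nr4a2, an orphan nuclear receptor, fell by 1.42 (SE 0.29, 0.00372). On CHOW the log2 fold changes of Tnfaip3, Nfkbia and Cebpd were 1.61 (SE 0.30, 0.0141), 1.27 (SE 0.26, 0.0253) and 0.97 (SE 0.21, 0.0407). These 3 calls on CHOW were lost in 4, 6 and 7 of the 9 fits that left out 1 library each, while those on HFD were kept in all 12. With the adipocyte covariate none of these 3 HFD calls remained, at 0.93 for Tnfaip3 (limma adjusted p = 0.213), 0.76 for Nfkbia (0.244) and −1.75 for Nr4a2 (0.0728). On CHOW Tnfaip3 was then 0.94 (limma adjusted p = 0.0941) and Nfkbia 0.70 (0.131), while Cebpd kept its call. In that comparison on CHOW the covariate took the calls over all genes from 103 to 170. The members Fos, Jun and Atf3 had negative log2 fold changes over the same time, none of them called.

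Of 21 other heat shock genes, 0 were called by limma for diet at 8, 20 or 34 weeks, beside 0.0238%, 14.3% and 0.243% of all genes. At an unadjusted p under 0.05 they numbered 6, 3 and 7, beside 9.7%, 30.5% and 13.2% of all genes. From 8 to 20 weeks on HFD 2 of the 21 were called, both higher, beside 6.12% of all genes. They were Dnajb4, a co-chaperone of Hsp70, with a log2 fold change of 0.77 (SE 0.18, limma adjusted p = 0.0116), and Stip1, which links Hsp70 to Hsp90, with 0.64 (SE 0.17, 0.0216). Without HFD 8 week replicates 3 and 6 and HFD 20 week replicate 5 neither was called, at 0.54 for Dnajb4 (limma adjusted p = 0.0925) and 0.38 for Stip1 (0.0849). With the adipocyte covariate they were 0.92 (0.157) and 0.26 (0.686).

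Of 14 genes of the ER stress and amino acid response, 4 fell with HFD at 20 weeks, beside 4.99% of all genes, and 2 fell from 8 to 20 weeks on HFD, beside 2.65%. Chac1, which degrades glutathione, was at 15.5 TPM ± 4.71 (SD, n = 5) on CHOW and 7.19 TPM ± 2.02 (n = 6) on HFD at 20 weeks, a log2 fold change of −1.001 (SE 0.32, limma adjusted p = 0.0432). Dnajb9, a chaperone of the ER, fell by 0.59 (SE 0.19, 0.0402) and Xbp1, a factor of the unfolded protein response, fell by 0.47 (SE 0.15, 0.0405). The call on Chac1 was lost in 9, that on Dnajb9 in 9 and that on Xbp1 in 8 of the 11 fits that left out 1 library each. Over time on HFD Chac1 fell by 1.45 (SE 0.31, 0.00484), a call kept in all 12 such fits, and Dnajb9 fell by 0.65 (SE 0.18, 0.0255), a call lost in 3 of them. The adipocyte covariate ended all 5 of these calls, with Chac1 at −1.43 (limma adjusted p = 0.235), Dnajb9 at −0.17 (0.795) and Xbp1 at −0.45 (0.400) for diet, and Chac1 at −1.87 (0.0693) and Dnajb9 at −0.25 (0.725) over time.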

How the data were processed

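SVF RNA from 34 libraries was sequenced as stranded poly(A) libraries. The authors trimmed reads with Trimmomatic, quantified them with Salmon (gencode M10, mm10) and deposited TPM per gene in 2 tables, 1 for 8 and 20 weeks (21 libraries) and 1 for 34 weeks (13 libraries). Their versions are not known from the sources used here. TPM holds no counts, so depth is unknown, no counting interval is given, and the authors' count-based tests (DESeq2) are not analysed here.

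IDs were matched to symbols with gencode M21 (GRCm38), 31791 of 32098. Genes that reached 1 TPM in 4 or more libraries (8 and 20 weeks) or 6 or more (34 weeks) were tested on log2(TPM + 1), a scale that understates changes of low genes. limma 3.58.1 in R 4.3.3 was used with 1 mean per group, a mean-variance trend and Benjamini-Hochberg adjustment over all tested genes (16808 and 13982), two-sided, with calls at an adjusted p under 0.05. Each table had its own fit and none was tested against the other. The script was tested on simulated data. Relations used 100000 permutations within groups.

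All members were named, and from each programme list up to 3 called genes with the largest change per comparison. The 5 genes most like Fos and the heat shock sum were taken from genes with a mean of 5 TPM or more. The members and lists were chosen with earlier results of these data known. The alternatives were a pseudocount of 0.1 TPM, no filter or a filter of 5 TPM, 2 other scalings, library weights, a replicate block, only the compared groups, an adipocyte covariate and libraries left out. The exact permutation test of the summed pair and the fits without germ cell RNA were added after the data were seen.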

Additional observations from a re-analysis of the deposited data

Results flagged for a closer look

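A library was counted as far from the others of its group where its gap to the nearest one, over the group's range of log2(TPM + 1), passed Dixon's 95% value. Of 66 sets (10 members and the heat shock sum in 6 groups) 4 had such a library. Chance gives about 1 in 20 for normal values, which does not hold for values tied at 0 or for a sum that repeats its members. Atf3 was low in CHOW 8 week replicate 3, at 336 TPM with the nearest library at 576 TPM. Hspa1a was high in CHOW 8 week replicate 4, at 608 TPM with the nearest at 237 TPM. Npas4 was high in CHOW 8 week replicate 2, at 0.141 TPM where the other 3 libraries were listed at 0, so that any value above 0 would have passed. It was also high in CHOW 20 week replicate 2, at 1.08 TPM with the nearest at 0.200 TPM and 3 libraries at 0.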

How the results depend on the processing

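Read depth is unknown, and the log2(TPM + 1) scale limits what can be said of Npas4. The count of called members was unchanged in all alternatives for 20 against 8 weeks on CHOW and for the interaction (0 in each). At 8 weeks it was 1 in place of 0 with sample quality weights (Npas4), a fit that called 209 of all genes in place of 4. At 20 weeks the count of members was 0 in place of 1 with the filter of 5 TPM, which removes Npas4, and with the adipocyte covariate. It was 2 with sample quality weights (Ier3 and Npas4). In that order these fits called 1974, 44 and 5092 of the genes they tested, in place of 2405. At 34 weeks the count of members was 0 in place of 1 with a pseudocount of 0.1 TPM (Npas4 adjusted p = 0.0796 in limma) and with the filter of 5 TPM. The same held with the replicate block, the adipocyte covariate and the libraries that stand apart left out. In that order these fits called 0, 7, 0, 0 and 0 of the genes they tested, in place of 34. For 20 against 8 weeks on HFD the count of members was 0 in place of 1 with a pseudocount of 0.1 TPM, the filter of 5 TPM and the adipocyte covariate. It was also 0 with the libraries that stand apart left out and with the libraries over 2000 TPM of germ cell markers left out. Median-ratio scaling gave 2, and both quantile normalization and sample quality weights gave 3. In that order these fits called 1532, 1292, 126, 1057, 607, 2432, 2755 and 2073 of the genes they tested, in place of 1475. With 1 library left out the count of members ranged from 0 to 1 at 34 weeks and from 1 to 3 for 20 against 8 weeks on HFD. The 3 came without HFD 20 week replicate 4, where 1195 of all genes were called. The cause was not tested beyond the construction of these fits.

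Same-numbered libraries of different groups had r of −0.105 to 0.404 over 34 pairs, with 16 over 0.1 and 13 best matched by their own number. In no direct comparison was r over 0.1 in every pair, so the main fit did not treat the libraries as paired. At 34 weeks, though, CHOW replicates 1, 2, 3 and 6 were best matched by the HFD library of their own number. Replicates 4 and 5 were not, and the labels do not say whether libraries were paired. All pairs of CHOW 8 week with HFD 20 week, which were not compared directly, had r of 0.101 to 0.167. The highest r, 0.404, was between HFD 8 week and HFD 20 week. With the replicate block the Npas4 log2 fold change at 34 weeks was 1.48 (adjusted p = 0.146 in limma) and the Fos one was −0.044.

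Of 60 member values 25 changed sign in some alternative, not counting the fits that left out 1 library, and 0 of the 25 were called. Some others changed sign only with 1 library left out, such as Atf3 for diet at 8 weeks (lowest −0.025). Among values given above, Npas4 from 8 to 20 weeks on CHOW was −0.47 with the adipocyte covariate. For diet at 20 weeks, Hspa1a and Hspa1b were −0.37 and −0.26 without the libraries over 2000 TPM of germ cell markers. Fos at 34 weeks was −0.018 with median-ratio scaling, −0.32 with the adipocyte covariate, −0.23 with the 3 CHOW libraries that stand apart left out, and −0.065 to 0.26 with 1 library left out. Hspa1a and Hspa1b at 34 weeks were 0.30 and 0.55 with the adipocyte covariate and 0.13 and 0.40 with those libraries left out. With them left out the relation of Fos to the heat shock sum was 0.381 at 34 weeks, and the sum differed by 0.24 at 34 weeks. With HFD 8 week replicates 3 and 6 left out the sum differed by 0.26 at 8 weeks. With 1 library left out the sum's difference ranged from −0.40 to 0.28 at 8 weeks, from −0.047 to 0.66 at 20 weeks and from −0.69 to 0.055 over time on HFD.

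Median-ratio scaling moved the median of all genes from 0.18 to 0.03 in the interaction, and quantile normalization from 0.09 to −0.06 over time on HFD, from 0.08 to −0.05 at 20 weeks and from 0.10 to −0.00 at 34 weeks.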
